A study of Mus musculus with 35 samples.

Results

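The signal regulatory protein (SIRP) genes followed here are *Sirpa*, *Sirpb1a*, *Sirpb1b*, *Sirpb1c*, *Gm5150* and *Gm9733*, 6 of the 49671 genes in the counts. They were taken by name, and the family was chosen by the log2 fold changes of its members against the empty vector, since some were lower with all 6 fusion constructs. The levels against the empty vector are therefore a description with no test. All 6 genes passed the filter on low counts, which kept 17166 genes.

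SIRPα, the product of *Sirpa*, is an inhibitory receptor of macrophages, dendritic cells and granulocytes. It binds CD47, which nearly all cells carry, and its phosphorylated cytoplasmic motifs recruit the tyrosine phosphatases SHP-1 (*Ptpn6*) and SHP-2 (*Ptpn11*), which holds back phagocytosis. The SIRPβ receptors, the products of the *Sirpb1* genes, have a similar outer part but a short cytoplasmic tail. They pass an activating signal through the adaptor DAP12 (*Tyrobp*) and the kinase SYK (*Syk*). *Gm5150* and *Gm9733* are predicted genes of the same chromosome 3 cluster.

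The study expressed fusions of NUP98 and HOXA9, which arise by translocation in acute myeloid leukemia, to ask how the phenylalanine-glycine (FG) motifs of NUP98 and the DNA-binding homeodomain of HOXA9 bear on gene expression. Lineage-negative hematopoietic stem and progenitor cells from bone marrow of male and female C57Bl/6 mice were transduced with lentivirus and sorted for the vector's fluorescent proteins. Before RNA-seq they were grown for 1 week in methylcellulose medium that held myeloid and erythroid growth factors, with 10 ng/mL GM-CSF. The 7 conditions had 5 libraries each and are named as the labels name them. Empty is the vector without a fusion, and its cells were sorted for mCherry alone, whereas the cells of every construct were sorted for mCherry and mEGFP. G-NHX9 is the full-length fusion with an mEGFP tag (G-NHA9 in the study). G-NHX9-8FA has 8 phenylalanines changed to alanine, and G-NHX9-21FGAA has 21 FG pairs of the C-terminal region of the NUP98 portion changed to alanine pairs. G-NHX9-midi is a truncated fusion that keeps the C-terminal FG portion and lacks the GLEBS domain, G-NHX9-midi-21FGAA carries the 21FGAA changes within it, and G-NHX9-DDNA is the full-length fusion with DNA-binding residues of the homeodomain changed. The labels give mice of 8 weeks for 32 libraries, 9 weeks for Empty 4, 10 weeks for Empty 5 and 11 weeks for G-NHX9 1. The cells were not sorted again after growth, so each library is bulk RNA of whatever had grown. Nothing in the labels ties a library to an animal, so the p-values measure the spread between these libraries. Total counts were between 31559914 and 75810659 per library, and levels are CPM, the count of a gene relative to the total count of its library on the usual fixed scale, with the total scaled by TMM.

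*Sirpa* (ENSMUSG00000037902.18) is on the plus strand of chromosome 2 from 129592835 to 129632228 (GRCm38). On the minus strand of chromosome 3, *Gm9733* (ENSMUSG00000078783.1, 15296551 to 15332302), *Sirpb1a* (ENSMUSG00000095788.6, 15371653 to 15426520), *Sirpb1b* (ENSMUSG00000095028.6, 15495751 to 15575065), *Sirpb1c* (ENSMUSG00000074677.11, 15795145 to 15848528) and *Gm5150* (ENSMUSG00000078780.7, 15946870 to 16006437) take up 710 kb. The 3 *Sirpb1* genes are near copies of each other. Over 1191 coding bases, *Sirpb1b* and *Sirpb1c* were 98.3% identical, and *Sirpb1a* was 97.5% and 97.4% identical to them. *Gm5150* was 76.3% to 78.6% identical to the *Sirpb1* genes over the 885 to 889 bases aligned of its 897 coding bases, and *Sirpa*, with 1539 coding bases, was 66.7% to 67.0% identical to them over 1182 aligned bases.

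This closeness bears on the counts. Of the 100-base windows in the annotated transcripts, 77.0% of those of *Sirpb1a*, 60.7% of *Sirpb1b* and 67.9% of *Sirpb1c* were found in no other gene, against 100% for *Sirpa*, *Gm5150* and *Gm9733*. A read from a shared window can be given to the wrong *Sirpb1* gene or be left out, and how such reads were handled is not given in the sources used here. The 3 *Sirpb1* counts are uncertain to this extent, and those of *Sirpa*, *Gm5150* and *Gm9733* are not.

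Promoters of 4 of the 6 genes (the *Sirpb1* genes and *Gm5150*) were matched in the RefSeq table used here (GRCm38.p6). *Sirpa* and *Gm9733* had no match, so the 4 promoters cannot be set against those of other members. In the data that follow, all 6 genes had log2 fold changes below 0 with every construct. Between the *Sirpb1* genes the aligned promoters were 95.6% to 98.1% identical, and that of *Gm5150* was 86.6% to 87.8% identical to them. The stretch of 123 bases that all 4 windows hold is shown because it carries the only searched motif found in any of them, an ETS-type core AGGAAGT, read here on the other strand and marked in capitals. ETS factors such as PU.1 act in myeloid cells. The stretches lie on the minus strand at chr3:15426471-15426593 (*Sirpb1a*), chr3:15575016-15575138 (*Sirpb1b*), chr3:15848479-15848601 (*Sirpb1c*) and chr3:16006388-16006510 (*Gm5150*), and are written 5′ to 3′ along the gene.
Sirpb1a: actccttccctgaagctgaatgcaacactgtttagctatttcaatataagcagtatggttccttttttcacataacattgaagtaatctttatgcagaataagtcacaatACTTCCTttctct
Sirpb1b: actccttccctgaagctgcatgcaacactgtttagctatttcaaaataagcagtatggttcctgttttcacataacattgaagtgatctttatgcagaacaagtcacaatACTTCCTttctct
Sirpb1c: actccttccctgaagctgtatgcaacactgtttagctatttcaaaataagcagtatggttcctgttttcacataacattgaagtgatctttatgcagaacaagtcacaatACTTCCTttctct
Gm5150: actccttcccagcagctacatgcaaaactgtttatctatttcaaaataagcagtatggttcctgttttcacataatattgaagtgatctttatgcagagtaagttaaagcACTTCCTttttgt

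Over this stretch *Sirpb1b* and *Sirpb1c* shared 122 of 123 bases, whereas *Gm5150* shared 109 with *Sirpb1b* and 106 with *Sirpb1a*. Counted from the RefSeq start, the first base of the match lay at -56 in *Sirpb1a*, 38 in *Sirpb1b*, -4 in *Sirpb1c* and -68 in *Gm5150*. The stretches align without gaps, so the annotated starts lie at different places in the aligned sequence. The core was searched on both strands after the sequences had been seen, and 9.35% of the 32851 promoters of the table hold it. GAGGAAG, a PU.1 form that overlaps it, TTGCNNAA (C/EBP), TTTATNG (HOX9 to 13) and TATAAA had no match in the 4 windows, while 13.6%, 10.8%, 10.9% and 13.6% of all promoters had one. These matches describe letters and not binding.

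In Empty cells *Sirpa* was by far the most abundant member. Per kilobase of exon it stood at 260 ± 18.1 CPM (SD, n = 5), rank 182 of 17124 genes with a length. On the same per-kilobase scale *Sirpb1c* stood at 39.7 ± 7.30, *Gm5150* at 34.5 ± 10.9, *Sirpb1b* at 15.7 ± 3.55, *Sirpb1a* at 8.15 ± 1.73 and *Gm9733* at 4.02 ± 1.39 CPM. The ranks of these genes were 1223, 1395, 3010, 5052 and 7563. The levels below are CPM without division by length and are compared only within a gene.

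**Figure D1:**
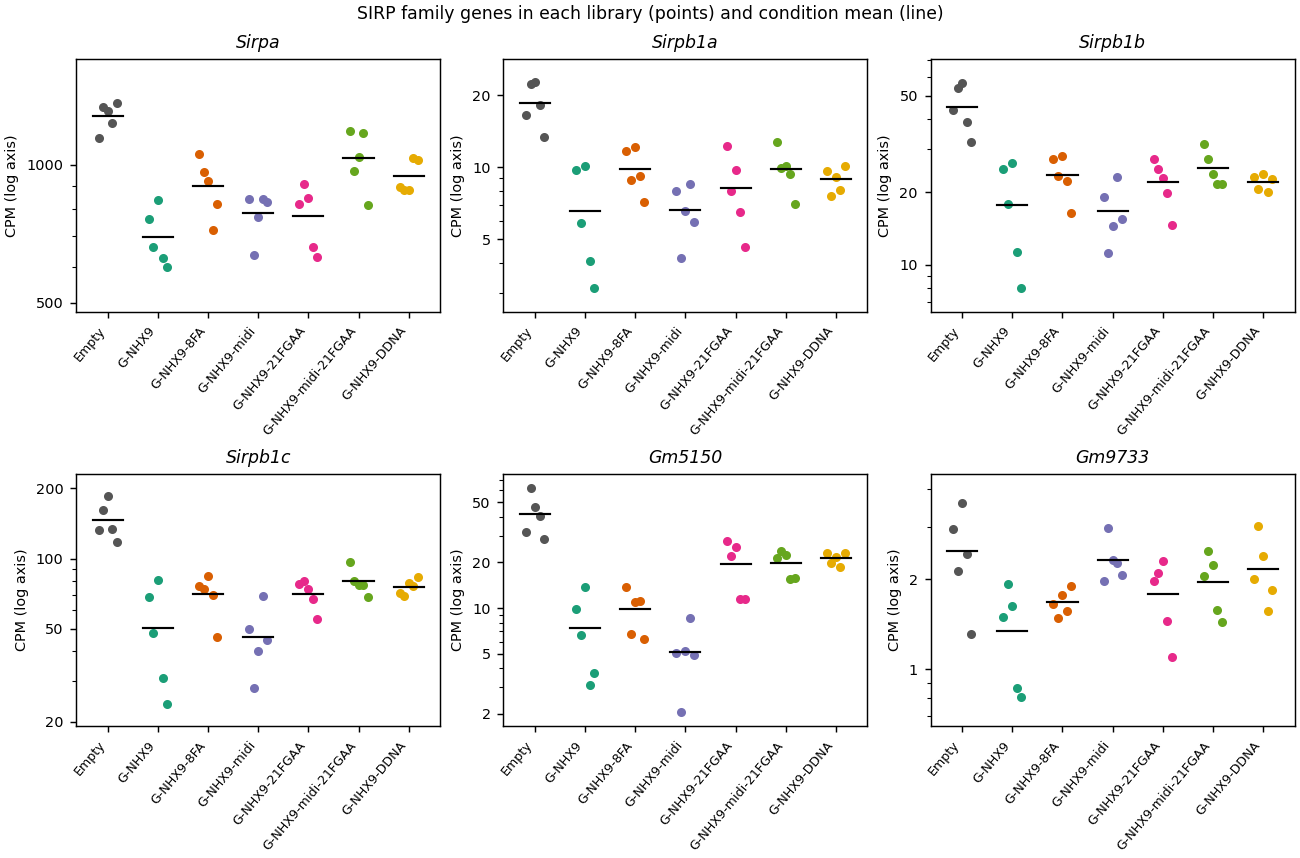
Level of each SIRP family gene in CPM (log axis) in the 35 libraries (points), with the mean of each condition (line), over Empty and the 6 constructs. The *Sirpb1* genes and *Gm5150* lay highest in Empty in every library, *Gm5150* was lowest with G-NHX9, G-NHX9-8FA and G-NHX9-midi, and *Gm9733* overlapped Empty throughout.

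The inhibitory receptor gene *Sirpa* was at 1145, 1339, 1310, 1233 and 1363 CPM in Empty 1 to 5. With G-NHX9 it was at 762, 661, 839, 628 and 598 CPM. These ranges did not overlap, and the mean with G-NHX9 was 54.6% of that with Empty (log2 fold change -0.87, SE 0.12). With G-NHX9-midi it was at 843, 635, 768, 843 and 829 CPM, and with G-NHX9-21FGAA at 824, 907, 845, 663 and 631 CPM. With G-NHX9-8FA it was at 1059, 966, 924, 720 and 821 CPM, and with G-NHX9-DDNA at 893, 881, 882, 1037 and 1028 CPM. All of these libraries lay below the lowest Empty library. The closest to Empty was G-NHX9-midi-21FGAA at 1188, 968, 1043, 1175 and 817 CPM, where 2 libraries lay within the Empty range (log2 fold change -0.30, SE 0.12). In order of mean level, Empty came first, then G-NHX9-midi-21FGAA, G-NHX9-DDNA, G-NHX9-8FA, G-NHX9-midi, G-NHX9-21FGAA and G-NHX9, and each condition overlapped the next.

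*Sirpb1c*, the most abundant of the activating receptor genes, was at 132, 161, 185, 134 and 117 CPM in Empty. It was at 68.3, 47.7, 81.0, 30.6 and 23.9 CPM with G-NHX9, and at 49.8, 27.8, 40.1, 69.1 and 44.6 CPM with G-NHX9-midi. The lowest library of all was G-NHX9 5, followed by G-NHX9-midi 2 and G-NHX9 4. With G-NHX9-8FA the values were 76.6, 74.2, 83.9, 69.8 and 46.3 CPM, with G-NHX9-21FGAA 78.0, 80.0, 74.1, 67.2 and 54.9 CPM, with G-NHX9-midi-21FGAA 96.8, 80.4, 76.7, 76.9 and 68.3 CPM and with G-NHX9-DDNA 71.0, 68.8, 78.5, 76.3 and 83.8 CPM. All 30 construct libraries were below all 5 Empty libraries. The mean was between 31.7% (G-NHX9-midi) and 54.6% (G-NHX9-midi-21FGAA) of Empty. From the second place on, the conditions overlapped in order of mean level, so Empty alone was set apart.

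*Sirpb1b* and *Sirpb1a* followed the same course at lower levels. *Sirpb1b* was between 32.4 and 56.7 CPM in Empty (median 43.6), between 8.01 and 26.3 CPM with G-NHX9 (median 17.9) and between 11.2 and 23.0 CPM with G-NHX9-midi. Its highest construct library was at 31.7 CPM, with G-NHX9-midi-21FGAA, just under the lowest Empty library. *Sirpb1a* was between 13.3 and 22.7 CPM in Empty (median 18.3) and between 3.12 and 10.1 CPM with G-NHX9 (median 5.86). Its highest construct library, at 12.7 CPM with G-NHX9-midi-21FGAA, was again under the lowest Empty library. The mean of *Sirpb1b* was 36.9% to 55.9% of Empty and that of *Sirpb1a* 35.3% to 52.7%.

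*Gm5150* showed the widest differences in the family. In Empty it was at 31.8, 61.8, 46.3, 40.4 and 28.6 CPM. It was at 9.92, 6.62, 13.8, 3.09 and 3.75 CPM with G-NHX9, at 13.9, 6.75, 11.0, 11.2 and 6.23 CPM with G-NHX9-8FA, and at 5.02, 2.07, 5.24, 8.59 and 4.88 CPM with G-NHX9-midi. None of these 15 libraries was above 13.9 CPM. With G-NHX9-21FGAA it was at 27.5, 22.1, 25.3, 11.5 and 11.4 CPM, with G-NHX9-midi-21FGAA at 21.5, 23.7, 22.3, 15.5 and 15.8 CPM and with G-NHX9-DDNA at 23.2, 19.9, 21.7, 18.7 and 23.3 CPM. Of these 15 libraries, 2 (G-NHX9-21FGAA 4 and 5) fell within the range of the first 3 constructs, and none reached the lowest Empty library. The mean was 12.3% of Empty with G-NHX9-midi, 17.8% with G-NHX9 and 23.5% with G-NHX9-8FA, but 46.8%, 47.3% and 51.1% with G-NHX9-21FGAA, G-NHX9-midi-21FGAA and G-NHX9-DDNA.

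*Gm9733*, the member with the lowest level and 31 to 156 counts in a library, was between 1.32 and 3.60 CPM in Empty (median 2.42). It was between 0.806 and 1.93 CPM with G-NHX9 (median 1.50), and the 2 lowest of these libraries were the ones below every Empty library. With G-NHX9-midi it was between 1.97 and 2.97 CPM (median 2.27), inside the Empty range. Every condition overlapped every neighbour in order of mean level.

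Counted by the fit over all genes, 6 members were lower with G-NHX9 than with Empty, 5 with each of G-NHX9-8FA, G-NHX9-midi, G-NHX9-21FGAA and G-NHX9-DDNA, and 4 with G-NHX9-midi-21FGAA. A gene was called at an adjusted p under 0.05. The shares of all tested genes called lower were 15.2%, 13.2%, 20.0%, 12.5%, 7.35% and 7.32% for G-NHX9, G-NHX9-8FA, G-NHX9-midi, G-NHX9-21FGAA, G-NHX9-DDNA and G-NHX9-midi-21FGAA. The members called lower with all 6 constructs were 4 (*Sirpb1a*, *Sirpb1b*, *Sirpb1c* and *Gm5150*), beside 0.961% of all tested genes. The same 4 had every construct library below every Empty library, beside 0.449% of all tested genes. In the order G-NHX9, G-NHX9-8FA, G-NHX9-midi, G-NHX9-21FGAA, G-NHX9-midi-21FGAA and G-NHX9-DDNA, the shares of all tested genes with every construct library below every Empty library were 9.51%, 8.75%, 13.9%, 7.79%, 5.49% and 6.31%. The log2 fold change was below 0 with all 6 constructs for all 6 members and for 18.5% of all tested genes. *Sirpa* was called with all constructs but G-NHX9-midi-21FGAA, and *Gm9733* with G-NHX9 alone. Since this pattern chose the family, nothing is read from these counts. *Gm5150* was the member nearest the limit, and it dropped out of the 4 without library scaling by TMM and in 10 of the 35 fits that left out 1 library (Empty 2, 3 or 4, G-NHX9-21FGAA 5, G-NHX9-midi-21FGAA 4 or 5, or G-NHX9-DDNA 1, 2, 3 or 4), leaving 3. The 3 *Sirpb1* genes were called in all of these fits, which use the same libraries that chose the family and so add no support. The 6 comparisons share the 5 Empty libraries.

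The median log2 fold change of the 6 members was -1.43 with G-NHX9, -1.47 with G-NHX9-midi, -1.04 with G-NHX9-21FGAA, -0.96 with G-NHX9-DDNA, -0.93 with G-NHX9-8FA and -0.86 with G-NHX9-midi-21FGAA. Over all tested genes the medians lay between -0.02 and 0.03. Without TMM these medians of all genes moved up to between 0.08 and 0.19, and the members stayed below 0 with every construct except *Gm9733* with G-NHX9-midi, at 0.02.

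**Figure D2:**
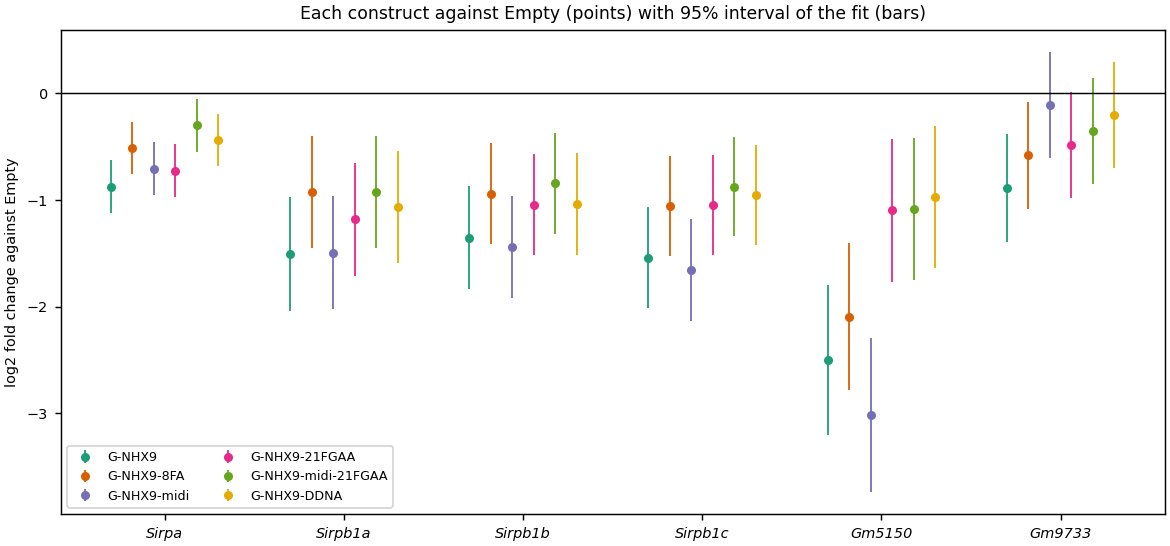
Log2 fold change of each SIRP family gene with each of the 6 constructs against Empty (points, 5 libraries in each condition) with the 95% interval of the fit (bars). The values of *Gm5150* ran from -3.02 (G-NHX9-midi) to -0.97 (G-NHX9-DDNA), a wider span than that of any other member, and 4 of the 6 intervals of *Gm9733* crossed 0.

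The comparisons between constructs were not used to choose the genes and were tested with edgeR's quasi-likelihood test, adjusted by Benjamini-Hochberg over all tested genes. They ask whether the changes in FG motifs or in the homeodomain moved the SIRP genes. All differences are on the log2 scale, and G-NHX9 is shared by 4 of the 7 comparisons. *Gm5150* was the member that separated the constructs most. It was higher with G-NHX9-21FGAA than with G-NHX9 by 1.40 (SE 0.33, adjusted p = 0.0025), higher with G-NHX9-DDNA than with G-NHX9 by 1.53 (SE 0.33, adjusted p = 0.00094) and higher with G-NHX9-midi-21FGAA than with G-NHX9-midi by 1.93 (SE 0.34, adjusted p = 2e-05). It was also higher with G-NHX9-21FGAA than with G-NHX9-8FA by 1.00 (SE 0.33, adjusted p = 0.019). In the comparisons of G-NHX9-DDNA with G-NHX9 and of G-NHX9-midi-21FGAA with G-NHX9-midi, the ranges did not overlap, and 7.03% and 14.2% of all tested genes had every library of the first condition above every library of the second. For the 8FA change the difference of *Gm5150* from G-NHX9 was 0.40 with a 95% interval from -0.27 to 1.08 (adjusted p = 0.46), and for the truncation it was -0.52 with an interval from -1.21 to 0.17 (adjusted p = 0.3). Neither was called, and these intervals leave room for differences in either direction.

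The FG to AA changes were tested in both lengths of the fusion. In the truncated fusion 4 members were higher with G-NHX9-midi-21FGAA than with G-NHX9-midi, in a comparison in which 43.2% of all tested genes were called and 21.0% were higher. Beside *Gm5150* these were *Sirpb1c* (0.78, SE 0.23, adjusted p = 0.0057), *Sirpb1b* (0.60, SE 0.23, adjusted p = 0.036) and *Sirpa* (0.41, SE 0.12, adjusted p = 0.0063). The call of *Sirpb1b* was lost without any of G-NHX9-midi 2, 3 or 5 or G-NHX9-midi-21FGAA 1 or 2 (adjusted p from 0.065 to 0.11). In the full-length fusion *Gm5150* alone was higher with G-NHX9-21FGAA than with G-NHX9, where 17.2% of all tested genes were called and 8.91% were higher. The difference of *Sirpb1c* there was 0.49 (95% interval 0.03 to 0.96, adjusted p = 0.15) and that of *Sirpa* 0.15 (-0.10 to 0.40, adjusted p = 0.48). Over 17 alternatives the adjusted p of *Sirpb1c* was between 0.023 and 0.32, and it was called in 1 of them, without G-NHX9 3. In this comparison too the replicate numbers paired the libraries. With the replicate number as a block *Gm5150* was again the only member called (1.43, adjusted p = 0.00063), and *Sirpb1c* was at 0.54 (adjusted p = 0.057). Whether the 21FGAA changes acted differently in the 2 lengths was tested as an interaction, and no member was called, with adjusted p between 0.24 and 0.74. For *Gm5150* the interaction was -0.53 (95% interval -1.49 to 0.42).

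**Figure D3:**
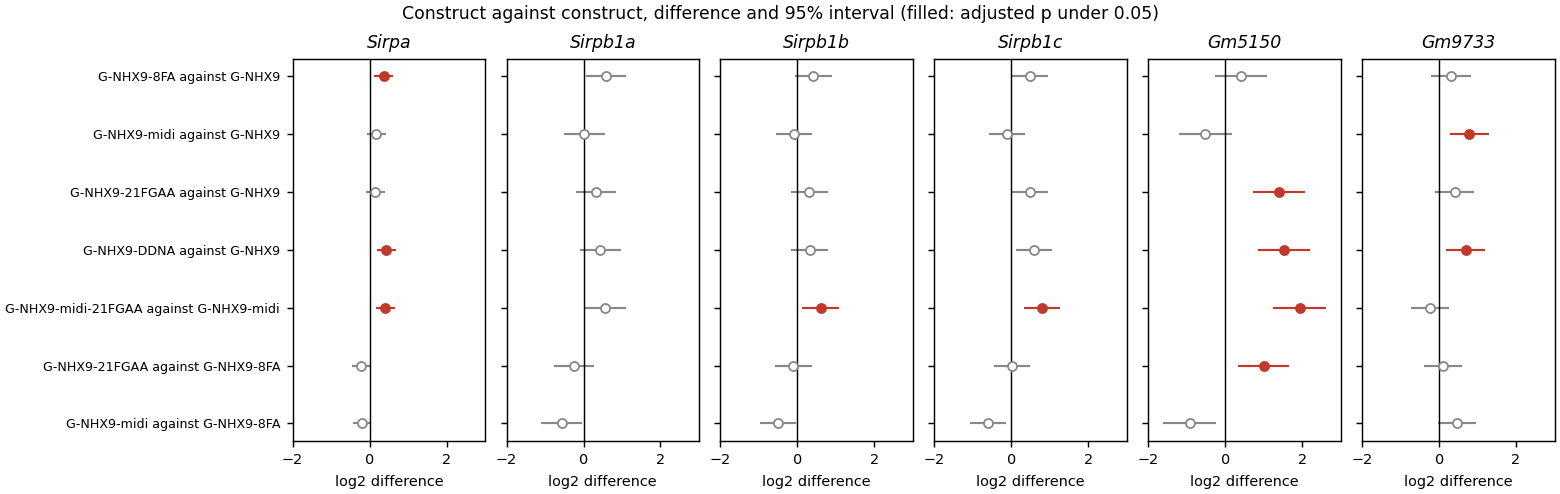
Log2 difference of each SIRP family gene between constructs (first named minus second named) with its 95% interval, for 7 comparisons of 5 against 5 libraries. Filled points mark adjusted p under 0.05. *Gm5150* has 4 such points, between 1.00 and 1.93, and *Sirpb1a* has none.

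With the DNA-binding residues changed, 3 members were higher in G-NHX9-DDNA than in G-NHX9 cells, where 22.1% of all tested genes were called and 10.7% were higher. These were *Gm5150*, *Sirpa* (0.44, SE 0.12, adjusted p = 0.0073) and *Gm9733* (0.68, SE 0.25, adjusted p = 0.044). Every G-NHX9-DDNA library was above every G-NHX9 library for *Sirpa*, whereas for *Gm9733* the ranges overlapped. *Gm9733* lost its call without G-NHX9 1, 4 or 5 or G-NHX9-DDNA 1, 2 or 3 (adjusted p from 0.055 to 0.15), without the filter (0.068) and in the fit of these conditions alone (0.1). Between G-NHX9-DDNA and G-NHX9 the replicate numbers also paired the libraries. In the fit with the block 5 members were called, with *Sirpb1c* (0.67, adjusted p = 0.016) and *Sirpb1a* (0.54, adjusted p = 0.045) added. Over all 17 alternatives the adjusted p was between 0.0077 and 0.17 for *Sirpb1c* and between 0.045 and 0.46 for *Sirpb1a*.

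With the 8FA change, *Sirpa* was the 1 member called. It was higher with G-NHX9-8FA than with G-NHX9 by 0.36 (SE 0.12, adjusted p = 0.037), with overlapping ranges, and 14.5% of all tested genes were called. This call was lost in 6 of the 10 fits without 1 of these libraries (G-NHX9 2, 4 or 5, G-NHX9-8FA 1, 2 or 3, with adjusted p from 0.066 to 0.13), without TMM, without the filter and in the fit of these conditions alone. *Sirpb1c* and *Sirpb1a* were called without G-NHX9 3, so that 3 members were called in that fit.

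With the truncation, *Gm9733* was the 1 member called. It was higher with G-NHX9-midi than with G-NHX9 by 0.78 (SE 0.25, adjusted p = 0.024), with every G-NHX9-midi library above every G-NHX9 library, as held for 5.42% of all tested genes, while 19.7% were called. Without G-NHX9 4 or 5 or G-NHX9-midi 2 the adjusted p was between 0.07 and 0.086, and no member was called. Between G-NHX9-midi and G-NHX9-8FA no member was called, against 4.25% of all tested genes. The largest differences were those of *Gm5150* (-0.92, adjusted p = 0.12), *Sirpb1c* (-0.60, adjusted p = 0.15), *Sirpb1a* (-0.57, adjusted p = 0.25) and *Sirpb1b* (-0.50, adjusted p = 0.27). *Gm9733* was in the other direction (0.47, adjusted p = 0.34). DESeq2 called none. Without G-NHX9-midi 4, *Gm5150* and *Sirpb1c* were called. Between G-NHX9-21FGAA and G-NHX9-8FA, where 32.4% of all tested genes were called, *Gm5150* was the only member called, and its adjusted p was between 0.0054 and 0.053 over 17 alternatives, the highest without G-NHX9-21FGAA 1. *Sirpb1c* was at 70.8 and 70.2 CPM in these conditions, a difference of 0.01 with an interval from -0.45 to 0.48.

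*Gm5150* and *Sirpb1c* differed from each other across conditions. The counts of *Gm5150* were 0.284 ± 0.0607 (SD, n = 5) of those of *Sirpb1c* in Empty, 0.142 ± 0.0261 with G-NHX9, 0.140 ± 0.0340 with G-NHX9-8FA and 0.108 ± 0.0221 with G-NHX9-midi. All of these construct libraries lay between 0.0744 and 0.181, below the Empty range of 0.240 to 0.383. With G-NHX9-21FGAA the ratio was 0.270 ± 0.0803, with G-NHX9-midi-21FGAA 0.248 ± 0.0423 and with G-NHX9-DDNA 0.283 ± 0.0295, overlapping Empty. The ratio of *Sirpb1b* to *Sirpb1c* had means of 0.354, 0.336 and 0.365 with G-NHX9, G-NHX9-8FA and G-NHX9-midi and of 0.292 to 0.315 in the other conditions, a smaller difference in the opposite direction and with overlapping libraries. The means of *Sirpb1a* to *Sirpb1c* were 0.114 to 0.146. A ratio within a library shows unequal change and not which gene moved.

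**Figure D4:**
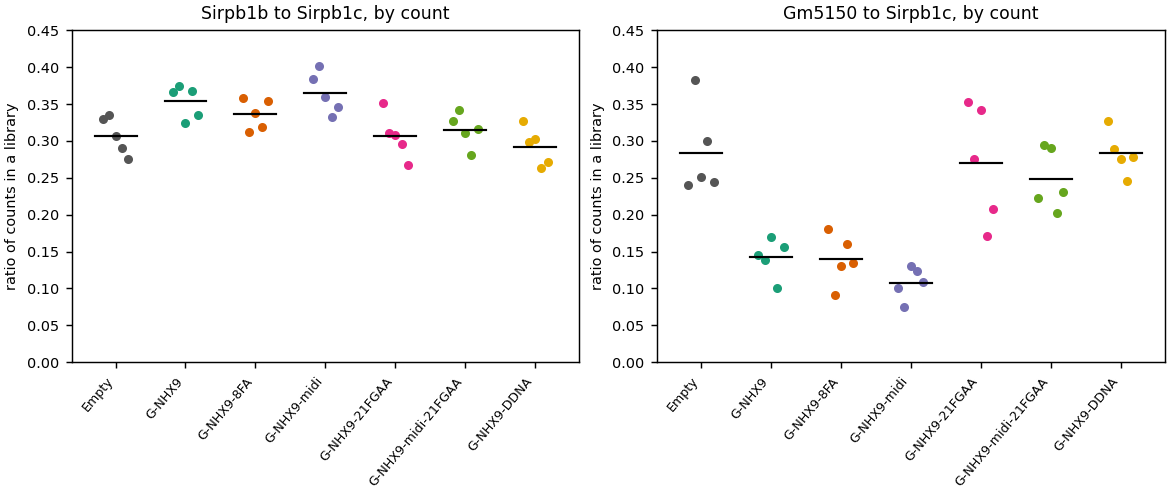
Ratio of counts within each library (points) and condition mean (line) for *Sirpb1b* to *Sirpb1c* (left) and *Gm5150* to *Sirpb1c* (right). The left ratio had means of 0.336 to 0.365 with G-NHX9, G-NHX9-8FA and G-NHX9-midi and 0.292 to 0.315 in the other conditions, and the right ratio was at 0.108 to 0.142 with G-NHX9, G-NHX9-8FA and G-NHX9-midi and at 0.248 to 0.284 in the other conditions.

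Across the 35 libraries the *Sirpb1* genes ran closely together. Pearson's r of log2 CPM was 0.97 between *Sirpb1b* and *Sirpb1c* and 0.96 after subtracting the mean of each condition. These genes share up to 36.0% of their 100-base windows (*Sirpb1b* with *Sirpb1c*), so shared reads enter the correlation. *Gm5150*, which shares no such window, had r = 0.91 with *Sirpb1c* (0.85 within conditions). *Sirpa*, on another chromosome, had r = 0.85 with *Sirpb1c* (0.67 within conditions), and *Gm9733* had r between 0.39 and 0.51 with the others. All these values are descriptions over libraries of 7 conditions with shared depth and scaling. In some conditions libraries 4 and 5 were lower than 1 to 3 for several members together, which enters r within conditions.

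The genes most like each member, by r of log2 CPM were sought among the 12775 genes whose mean reached 1 CPM. For *Sirpa* they were *Abhd12* (r = 0.94), a lysophosphatidylserine lipase, *Atp6v1b2* (0.93), a subunit of the vacuolar proton pump, and *Hectd3* (0.93), a ubiquitin ligase. The *Sirpb1* genes had each other and *Ctss* (0.94 with *Sirpb1b*), the cathepsin S of antigen-presenting cells, and for *Sirpb1c* also *Lyz2* (0.95), the lysozyme of myeloid cells. *Gm5150* had *Ces2c* (0.95), a carboxylesterase, *Osbpl11* (0.94), an oxysterol-binding protein, and *Cisd1* (0.93), an iron-sulfur protein of mitochondria. *Gm9733* was followed less closely, by *Cab39l*, *Evl* and *Nudt4* (0.80, 0.78 and 0.78). No gene was common to *Gm5150* and the *Sirpb1* genes. The rule kept 3 genes per member, and other *Sirpb1* genes took places among them, so nothing is read from this.

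Markers of macrophages, which carry SIRPα, were set beside these levels. The cultures expressed macrophage genes, with *Mrc1*, *Cd68* and *Adgre1* at means of 1357, 840 and 666 CPM in Empty, and none of the 14 markers was at 0 throughout. The summed level of the 14 was 3059 to 4017 CPM in Empty, 1588 to 2758 CPM with G-NHX9, 1929 to 3557 CPM with G-NHX9-8FA, 1624 to 2905 CPM with G-NHX9-midi, 1693 to 2884 CPM with G-NHX9-21FGAA, 2615 to 3656 CPM with G-NHX9-midi-21FGAA and 2523 to 2820 CPM with G-NHX9-DDNA. The sum had r = 0.87 with *Sirpa*, 0.87 with *Sirpb1c* and 0.79 with *Gm5150* over 35 libraries, and 0.77, 0.81 and 0.77 within conditions. Single markers did not move as 1 group. With G-NHX9, 5 were lower and 4 higher, among them *Mrc1* (-1.38) and *Cd68* (-0.89) below Empty and *C1qb* (3.09) above it. With G-NHX9-midi 9 were lower and 1 higher, and with G-NHX9-midi-21FGAA 1 was lower and 1 higher, while the 3 *Sirpb1* genes were called lower in both. Of all tested genes, 15.2% were lower and 16.9% higher with G-NHX9, 20.0% and 20.5% with G-NHX9-midi, and 7.32% and 9.59% with G-NHX9-midi-21FGAA. In bulk RNA, fewer cells of a type and less RNA per cell cannot be told apart, and the part of macrophage number in the SIRP levels was not tested.

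**Figure D5:**
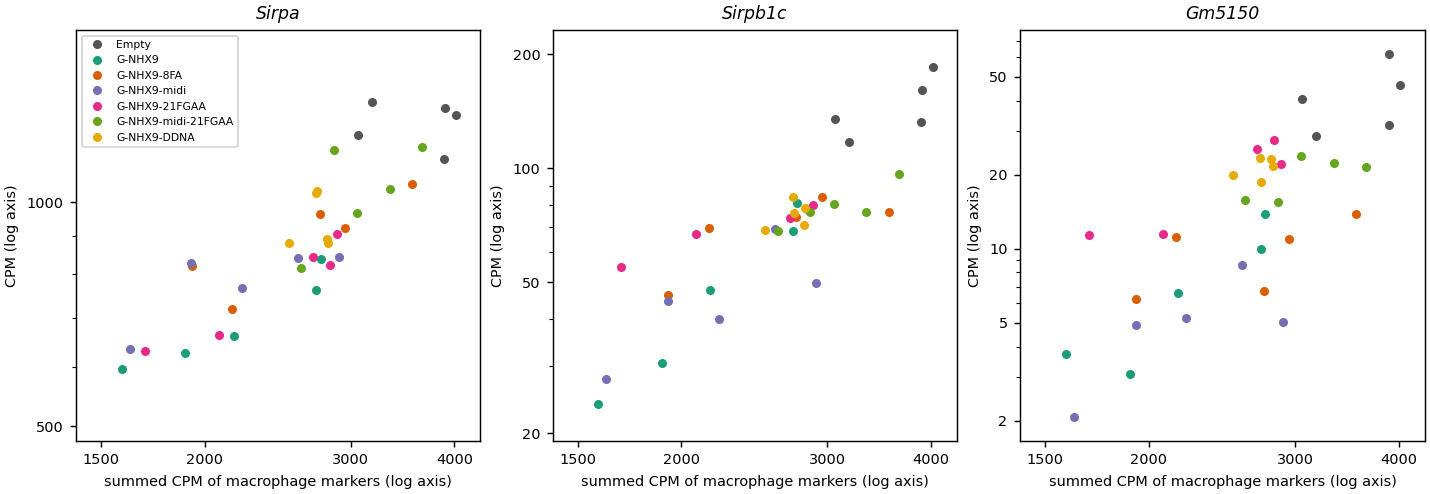
Level of *Sirpa*, *Sirpb1c* and *Gm5150* (CPM, log axis) against the summed level of 14 macrophage markers (CPM, log axis) in 35 libraries, coloured by condition. *Sirpa* and *Sirpb1c* rise with the sum (r = 0.87 for both), and for *Gm5150* most G-NHX9-8FA and G-NHX9-midi libraries lie below G-NHX9-21FGAA and G-NHX9-DDNA libraries of similar sum.

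Lists of other cell types were set beside the same levels. Dendritic cell markers (8 genes) summed to 457 to 555 CPM in Empty. With G-NHX9-8FA, G-NHX9-midi, G-NHX9-21FGAA and G-NHX9-midi-21FGAA every library was below this range (140 to 412 CPM), and with G-NHX9 and G-NHX9-DDNA the ranges overlapped it. This sum had r = 0.66 with *Sirpa* and 0.68 with *Gm5150* over 35 libraries, and 0.83 and 0.75 within conditions. Monocyte markers (5 genes) summed to 1037 to 1282 CPM in Empty and to 1692 to 3362 CPM over the 15 libraries of G-NHX9, G-NHX9-8FA and G-NHX9-midi, although 2, 3 and 2 of the genes were called higher and 1 lower in each. Eosinophil markers (5 genes) summed to 1147 to 1612 CPM in Empty, 27.8 to 913 CPM with these 3 constructs and 582 to 2170 CPM with the other 3. Mast cell and basophil markers (9 genes) summed to 1134 to 3431 CPM in Empty, 395 to 821 CPM with the first 3 and 2433 to 6209 CPM with the others. *Gm5150* divided the constructs likewise, apart from 2 G-NHX9-21FGAA libraries. With G-NHX9-21FGAA, G-NHX9-midi-21FGAA and G-NHX9-DDNA *Gm5150* was below Empty. The mean mast cell and basophil sums were 3562, 4691 and 2951 CPM with these constructs and 2398 CPM in Empty. The r of this sum with *Gm5150* was 0.75 over all libraries and 0.36 within conditions. Megakaryocyte markers (6 genes) had r = 0.73 and 0.33 with *Gm5150*. The monocyte sum had r = -0.69 with *Gm5150* and 0.31 within conditions, and the early granule sum -0.70 and -0.38 with *Sirpa*. The highest r of any list with *Gm5150* over all libraries was that of the lymphocyte list, at 0.90. Within conditions it was 0.74, against 0.77 for macrophages. With *Sirpb1c* the lymphocyte list had r = 0.89, and 0.79 within conditions. This list had 1 of its 6 genes tested, *Il7r*, an interleukin-7 receptor gene named here after its values were seen, which had log2 fold changes of -1.75 to -0.46 against Empty and was called lower with all constructs but G-NHX9-midi-21FGAA and G-NHX9-DDNA. The part of these cells in the level of *Gm5150* was not tested. The counts of called genes differed between marker lists and between constructs. Of 8 dendritic cell genes, 3 were higher and 2 lower with G-NHX9, and 1 and 5 with G-NHX9-midi. Of 8 erythroid genes, 0 were called with G-NHX9 and 7 were lower with G-NHX9-midi, and of 6 megakaryocyte genes 2 and 6 were lower. Of 7 stem and progenitor genes, 5 were higher and 1 lower with G-NHX9, and 3 and 1 with G-NHX9-midi. Early granule genes of neutrophils were higher in 4 and 3 of 5, and late neutrophil genes were lower in 3 and 3 of 12 and higher in 0 and 3. With G-NHX9-8FA 8 of 8 erythroid and 6 of 6 megakaryocyte genes were lower, and of 8 dendritic cell genes 1 was higher and 4 lower. Higher with G-NHX9-8FA were 4 of 5 early granule, 7 of 12 late neutrophil and 2 of 7 stem and progenitor genes, with 0 lower in each list. Of all tested genes, 16.9% were higher and 15.2% lower with G-NHX9, 13.4% and 13.2% with G-NHX9-8FA, and 20.5% and 20.0% with G-NHX9-midi. With G-NHX9-21FGAA, G-NHX9-midi-21FGAA and G-NHX9-DDNA, 5, 7 and 2 of 8 erythroid genes were higher. Early granule genes were higher in 5, 0 and 5 of 5, and 0 genes of either list were lower. In the same order, 14.7%, 9.59% and 9.85% of all tested genes were higher.

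The genes through which SIRP receptors act were taken from a list of 21, of which 18 were tested. The ligand gene *Cd47* was at 317, 409, 321, 567 and 578 CPM in Empty and was not called with any construct (log2 fold change -0.44 to -0.09). *Thbs1*, whose product thrombospondin-1 binds CD47, was higher with G-NHX9-midi (0.76, adjusted p = 0.027) and lower with G-NHX9-midi-21FGAA (-0.85, adjusted p = 0.032). These calls were kept in 11 of 17 alternatives each. The phosphatase gene *Ptpn6* was called with G-NHX9-midi alone (0.28, adjusted p = 0.047), a call kept in 6 of 17 alternatives (adjusted p up to 0.48). *Ptpn11* was higher with G-NHX9-21FGAA (0.36) and G-NHX9-DDNA (0.37) and lower with G-NHX9-midi (-0.27), with adjusted p between 0.0034 and 0.02.

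*Tyrobp*, the adaptor of the activating SIRPβ receptors, was at 1064, 1337, 1338, 1003 and 972 CPM in Empty. It was lower with 5 of the 6 constructs, by -0.85 with G-NHX9-21FGAA (SE 0.16, adjusted p = 0.00023), -0.72 with G-NHX9, -0.70 with G-NHX9-DDNA, -0.49 with G-NHX9-midi and -0.48 with G-NHX9-midi-21FGAA. With G-NHX9-8FA the difference was -0.13. The call with G-NHX9-midi-21FGAA was kept in 8 of 17 alternatives, and those with G-NHX9, G-NHX9-21FGAA and G-NHX9-DDNA in all 17. *Syk*, the kinase that follows it, was lower with G-NHX9 (-0.28), G-NHX9-21FGAA (-0.23) and G-NHX9-midi (-0.28), calls kept in 14, 6 and 15 of 17 alternatives.

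Among the Src-family kinases and adaptors, *Fgr* and *Grb2* were lower with all 6 constructs, *Fgr* by -1.24 (G-NHX9) to -0.62 (G-NHX9-8FA) and *Grb2* by -0.57 (G-NHX9-midi) to -0.36 (G-NHX9). Of the *Fgr* calls, those with G-NHX9, G-NHX9-midi and G-NHX9-21FGAA were kept in all 17 alternatives and those with G-NHX9-8FA, G-NHX9-midi-21FGAA and G-NHX9-DDNA in 7, 4 and 8. Those of *Grb2* were kept in all 17 with G-NHX9-midi, in 16, 14 and 12 with G-NHX9-midi-21FGAA, G-NHX9-8FA and G-NHX9-21FGAA, and in 8 and 6 with G-NHX9 and G-NHX9-DDNA. *Src* itself was lower with G-NHX9-8FA (-1.77, adjusted p = 1.2e-05) and G-NHX9-midi (-2.14, adjusted p = 3e-07) and higher with G-NHX9-21FGAA (0.95, adjusted p = 0.0084) and G-NHX9-DDNA (0.80, adjusted p = 0.037). The last call was kept in 8 of 17 alternatives and the others in all 17. *Lyn* was lower with G-NHX9 (-0.23), G-NHX9-21FGAA (-0.36) and G-NHX9-DDNA (-0.31). *Fyb*, an adaptor that binds SKAP2, was lower with G-NHX9-8FA (-0.71) and G-NHX9-midi (-0.76) and higher with G-NHX9-21FGAA (0.38). Of the 18 genes, 5 were lower and 0 higher with G-NHX9, 5 and 1 with G-NHX9-8FA, 9 and 2 with G-NHX9-midi, 5 and 3 with G-NHX9-21FGAA, 4 and 0 with G-NHX9-midi-21FGAA, and 5 and 2 with G-NHX9-DDNA. In the same order, 32.1%, 26.6%, 40.5%, 27.1%, 16.9% and 17.2% of all genes tested were called in either direction, and 16.9%, 13.4%, 20.5%, 14.7%, 9.59% and 9.85% were higher. The median log2 fold change of the list was between -0.27 and -0.10.

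Other paired receptors of myeloid cells gave a comparison, from a list of 25, of which 22 were tested. *Cd300lf*, an inhibitory receptor, was the 1 gene of the list lower with all 6 constructs, by -0.98 with G-NHX9 (SE 0.13, adjusted p = 4.9e-07) to -0.36 with G-NHX9-midi-21FGAA (adjusted p = 0.05, under the threshold before rounding). The last call was kept in 4 of 17 alternatives and that with G-NHX9-DDNA in 7, and the other 4 calls in all 17. *Siglece* was lower with 5 constructs, by -1.38 with G-NHX9 to -0.63 with G-NHX9-midi-21FGAA, and was at 0.19 with G-NHX9-DDNA, not called. Of the 15 inhibitory receptors tested, 8 were lower and 1 higher with G-NHX9, 4 and 1 with G-NHX9-8FA, 7 and 2 with G-NHX9-midi, 9 and 1 with G-NHX9-21FGAA, 5 and 1 with G-NHX9-midi-21FGAA, and 4 and 2 with G-NHX9-DDNA. In the same order, 15.2%, 13.2%, 20.0%, 12.5%, 7.32% and 7.35% of all tested genes were lower. The shares higher were 16.9%, 13.4%, 20.5%, 14.7%, 9.59% and 9.85%.

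The 7 tested receptors that couple to *Tyrobp*, as the SIRPβ receptors do, were described next. With G-NHX9-8FA and with G-NHX9-midi 5 of the 7 were higher than in Empty, where 13.4% and 20.5% of all tested genes were higher, and the median log2 fold change was 0.52 and 0.70. With G-NHX9-8FA 0 were lower, and with G-NHX9-midi 1. With G-NHX9 1 was higher and 1 lower, with G-NHX9-21FGAA 0 and 2, with G-NHX9-midi-21FGAA 2 and 1, and with G-NHX9-DDNA 2 and 2, with medians of -0.08 to 0.22. *Trem3* was higher with G-NHX9 (0.89), G-NHX9-8FA (1.42), G-NHX9-midi (1.01) and G-NHX9-DDNA (0.80). The other 4 that were higher with G-NHX9-8FA and with G-NHX9-midi were *Cd300lb*, *Clec5a*, *Pilrb1* and *Pilrb2*, of which *Clec5a* and *Pilrb2* are named after their values were seen. With G-NHX9-8FA the calls of *Pilrb1*, *Cd300lb* and *Clec5a* were kept in 6, 5 and 12 of 17 alternatives. *Trem2*, a lipid receptor of macrophages, was lower with G-NHX9 (-0.64), G-NHX9-midi (-1.13), G-NHX9-21FGAA (-0.91) and G-NHX9-DDNA (-0.86). *Cd300lb* was higher with G-NHX9-8FA (0.41) and G-NHX9-midi (0.74) and lower with G-NHX9-21FGAA (-0.70), G-NHX9-midi-21FGAA (-0.57) and G-NHX9-DDNA (-0.66).

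Genes within 500 kb of the members were examined to see whether the differences extended along the chromosome. Of the 47 genes there, 22 were tested, 4 beside the *Sirpb1* cluster and 18 beside *Sirpa*. Beside the cluster lie 3 carbonic anhydrase genes. *Car2* was higher with 5 constructs (0.88 to 1.64), opposite in direction to the *Sirpb1* genes. *Car1*, a gene of erythroid cells, was higher with G-NHX9 (2.61, adjusted p = 1.5e-05) and G-NHX9-21FGAA (1.23, adjusted p = 0.027). With G-NHX9-8FA and G-NHX9-midi *Car1* was lower, the direction of the *Sirpb1* genes, at 0 to 11 counts per library against 7 to 95 in Empty. *Car3* had at most 3 counts in any Empty library and at most 13 in any other, so its fold is not given. *Ythdf3*, which encodes a reader of methylated RNA and completes the 4, was not called with any construct (-0.25 to 0.07).

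Beside *Sirpa*, *Polr1b*, a subunit of RNA polymerase I, was higher with all 6 constructs (0.51 to 1.09), with G-NHX9-8FA in 9 of 17 alternatives. *Tgm3*, a transglutaminase gene, rose from 0 to 8 counts per Empty library to 119 to 329 with G-NHX9, 116 to 287 with G-NHX9-8FA and 378 to 649 with G-NHX9-midi. *Il1bos*, antisense to *Il1b*, whose reads cannot be told apart from those of its partner unless strand was counted, was lower with G-NHX9-8FA (-1.68) and G-NHX9-midi (-1.10). *Ckap2l* was higher with G-NHX9-21FGAA (0.85), G-NHX9-midi-21FGAA (0.74) and G-NHX9-DDNA (0.91). With G-NHX9-DDNA 3 of the 22 neighbours were called, beside 17.2% of all tested genes. In the fit that blocked on the replicate number 5 neighbours were called.

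*F830045P16Rik*, for which RefSeq gives the synonym *Sirpb3*, is a further SIRP-like gene that lies near *Sirpa* and is not among the 6. It was close to the limit of detection, with 2 to 11 counts in an Empty library, 0 to 5 with G-NHX9 and 7 to 24 with G-NHX9-21FGAA. Its mean was 0.142 CPM in Empty, 0.0473 CPM with G-NHX9, 0.323 CPM with G-NHX9-21FGAA and 0.363 CPM with G-NHX9-midi-21FGAA. A count of 3 corresponds to 0.0396 to 0.0951 CPM, so single values near this level are not informative. Between constructs it was higher with G-NHX9-21FGAA than with G-NHX9 (adjusted p = 0.00014) and with G-NHX9-midi-21FGAA than with G-NHX9-midi (adjusted p = 0.00061), the same directions as *Gm5150*. Against Empty it was lower with G-NHX9 (adjusted p = 0.038), as *Gm5150* was. With G-NHX9-21FGAA and G-NHX9-midi-21FGAA it was above Empty (adjusted p = 0.033 and 0.022), where *Gm5150* was below. These calls were kept in 7 of 16, 8 of 16 and 11 of 17 alternatives.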

How the data were processed

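The authors deposited whole-number read counts per gene for all 35 libraries in 1 table, without normalization. Per the labels, libraries were stranded total RNA sequenced in pairs, and the submitters' processing notes name STAR 2.7.0d, HTSeq 0.11.2, DESeq2 and mm10. The annotation and the strand and multi-mapping settings are not given in the sources used here. Counts were analysed here in R 4.3.3 with edgeR 4.0.16. filterByExpr kept 17166 genes with 99.96% of counts, libraries were scaled by TMM (factors 0.899 to 1.11), and 1 quasi-likelihood fit over all 35 libraries gave each condition its own mean. P-values were adjusted by Benjamini-Hochberg within each comparison, with a threshold of 0.05. Log2 CPM used a prior count of 2. Positions came from GENCODE M21 (GRCm38, 99.3% of identifiers matched) and promoters from RefSeq. The procedure was tested on simulated data. The members and the lists of partners, paired receptors, neighbours and markers were chosen with earlier results of these data known. Named were all members, listed genes with a described role or among the 4 largest called changes of a list with a construct, and the 3 genes most like each member. In 5 of 13 comparisons (G-NHX9, G-NHX9-midi-21FGAA and G-NHX9-DDNA against Empty, G-NHX9-21FGAA and G-NHX9-DDNA against G-NHX9), deviations of all 5 same-numbered pairs correlated above 0.1. By that check on the data the numbers pair these libraries. In the other comparisons the check was not met, but the mean of same-numbered pairs was also above that of other pairs. What the number stands for is not given in the sources used here. The study's methods describe transduction in triplicate, whereas its legend gives 5 per condition. *Gm5150* was lower in libraries 4 and 5 than in 1 to 3 with G-NHX9, G-NHX9-21FGAA and G-NHX9-midi-21FGAA. With Empty and the other constructs it was not split this way. The other members were split likewise with G-NHX9 and G-NHX9-21FGAA, and some also in further conditions, such as *Sirpb1b* in Empty. The macrophage marker sum was split so in Empty and with G-NHX9, G-NHX9-8FA, G-NHX9-21FGAA and G-NHX9-midi-21FGAA. This split enters the correlations within conditions. Leaving out 1 library at a time does not remove such a split, and its source was not tested. Libraries of a condition differed beyond counting noise in all 70 pairs. Limits from counts cover counting error only. Alternatives were no TMM, RLE factors, no filter, DESeq2 1.42.0, the replicate block, the 2 conditions alone, libraries labelled 8 weeks, and leaving out each library.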

Additional observations from a re-analysis of the deposited data

How the results depend on the processing

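In every alternative run, the *Sirpb1* genes, *Gm5150* and *Sirpa* were below Empty with all 6 constructs, with log2 fold changes of -1.84 to -0.79 (*Sirpb1a*), -1.71 to -0.70 (*Sirpb1b*), -1.85 to -0.73 (*Sirpb1c*), -3.27 to -0.78 (*Gm5150*) and -0.95 to -0.16 (*Sirpa*). *Gm9733* ran from -1.16 to 0.06. Members below Empty with all constructs were 5 without TMM (6 reported), where *Gm9733* was at 0.02 with G-NHX9-midi, and 5 to 6 with 1 library left out. No direction of a called result reversed, and RLE factors and DESeq2 moved no count by over 1.5 times. Without TMM, 0 members (1 reported) were called between G-NHX9-8FA and G-NHX9, where the median of all genes was -0.12, and 4 partners (7) with G-NHX9-DDNA. Without the filter, the former was 0, partners were 3 (5), 3 (6) and 2 (4) with G-NHX9, G-NHX9-8FA and G-NHX9-midi-21FGAA, and paired receptors 6 (10) with G-NHX9-DDNA. With the 2 conditions alone, 0 members were called for G-NHX9-8FA and 0 for G-NHX9-midi against G-NHX9, 3 partners with G-NHX9, and 4 (7) neighbours with G-NHX9-8FA and 4 (7) with G-NHX9-21FGAA. With libraries of 8 weeks, partners were 3, 2, 6 (11), 1 and 4 with G-NHX9, G-NHX9-8FA, G-NHX9-midi, G-NHX9-midi-21FGAA and G-NHX9-DDNA, and paired receptors 5 (10) and 4 (9) with G-NHX9-8FA and G-NHX9-midi-21FGAA. That setting also has fewer libraries. Otherwise the cause was not tested.

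With the replicate number as a block, 5 (3) members were called for G-NHX9-DDNA against G-NHX9 and 5 (3) neighbours with G-NHX9-DDNA. In G-NHX9-8FA against G-NHX9 2 (1) were called. There the same-numbered pairs correlated at 0.03 to 0.43, so the check with its limit of 0.1 was not met. The block moved no other count by over 1.5 times.

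With 1 library left out, members called were 0 to 3 (G-NHX9-8FA), 0 to 1 (G-NHX9-midi), 1 to 2 (G-NHX9-21FGAA) and 2 to 4 (G-NHX9-DDNA) against G-NHX9, 3 to 5 for G-NHX9-midi-21FGAA against G-NHX9-midi, and 0 to 1 (G-NHX9-21FGAA) and 0 to 2 (G-NHX9-midi) against G-NHX9-8FA. In the order G-NHX9, G-NHX9-8FA, G-NHX9-midi, G-NHX9-21FGAA, G-NHX9-midi-21FGAA and G-NHX9-DDNA against Empty, partners called were 4 to 7, 2 to 6, 7 to 11, 6 to 8, 1 to 3 and 3 to 6, paired receptors 7 to 11, 7 to 10, 14 to 17, 8 to 11, 4 to 9 and 4 to 10, and neighbours 6 to 9, 6 to 9, 8 to 12, 5 to 7, 4 to 5 and 3 to 4. The lowest counts of partners came without Empty 5 (2, G-NHX9-8FA), G-NHX9-midi 2 (7, G-NHX9-midi), G-NHX9-midi-21FGAA 3, 4 or 5 (1, G-NHX9-midi-21FGAA) and Empty 2 (3, G-NHX9-DDNA). Those of paired receptors came without G-NHX9 4 (7, G-NHX9), G-NHX9-midi-21FGAA 5 (4, G-NHX9-midi-21FGAA) and G-NHX9-DDNA 2 (4, G-NHX9-DDNA). Depth limits *F830045P16Rik* and *Car3*, which had at most 27 and 13 counts in a library.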
